A study of Mus musculus with 6 samples.

Results

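The 10 genes described, called members here, are Plin2, Plin3, Plin4 and Plin5 (perilipins), Cidea, Cideb and Cidec (CIDE proteins), Fitm1 and Fitm2 (FIT proteins) and G0s2. They were chosen by name as the coat and storage proteins of lipid droplets, out of 39179 gene identifiers counted. Earlier results of these data were known when the members and the other gene lists were chosen. Shares over all tested genes set beside them below are therefore a description and not a test of the sets. All 10 members passed the filter on low counts. The mice were C57BL/6J animals on chow rich in fat (60% of its energy), fed for 21 weeks from an age of 5 weeks. Obese animals were sorted by histology of the liver (haematoxylin and eosin) into isolated steatosis and nonalcoholic steatohepatitis (NASH), and 3 livers of each class were sequenced. Both groups therefore share strain and diet, and no lean liver is compared. The groups are classes read from stained sections and not a treatment, so cause and consequence of the class cannot be told apart.

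Hepatocytes store triglyceride in droplets that bud from the endoplasmic reticulum and are wrapped in a phospholipid monolayer with its own proteins. FIT proteins bind triglyceride in the reticulum and help droplets form. Perilipins coat the droplet and regulate the access of lipases to it, and CIDE proteins gather at contacts between droplets and let lipid pass from the smaller to the larger one. G0S2 binds and inhibits adipose triglyceride lipase, the enzyme encoded by Pnpla2 that opens triglyceride breakdown. Several of these genes are known targets of the nuclear receptors PPARalpha and PPARgamma, and many of their transcripts increase in fatty liver.

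Library totals ran from 13909238 to 18002095 counts. After mitochondrially encoded genes and 4 loci with rRNA-like sequence were set aside, 2185922 to 5149189 counts were left per library. That rest was 21.3%, 22.7% and 28.6% of the counts in steatosis 1, 2 and 3 and 17.2%, 15.5% and 15.7% in NASH 1, 2 and 3, lower in each NASH library than in any steatosis library. The TMM factors were likewise lower, at 0.91, 0.85 and 0.79 in NASH against 0.96, 1.12 and 1.5 in steatosis. The part of this difference in the levels was not tested beyond other scalings, and with libraries scaled to the remaining counts Plin4, Fitm1 and Fitm2 still passed. The rRNA-like loci took 22.3% of NASH 3 and 8.96% of steatosis 2 but at most 1.06% of each other library. Levels are given as CPM, counts scaled to library size after adjustment by the trimmed mean of M values (TMM). The members summed to 97 counts (Cideb) to 15455 counts (G0s2) over the 6 libraries. In bulk liver, fewer cells of a type and less RNA per cell cannot be told apart. Hepatocyte markers were abundant, with a summed level of 14611 to 17961 CPM in steatosis and 12719 to 13963 CPM in NASH over the 9 listed genes that were found. Of these edgeR and limma-voom called 0, with 1 lower at an unadjusted p under 0.05, and DESeq2 called 1 lower.

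Most droplet genes had lower mean levels in NASH, and 3 of them passed the test. In edgeR (quasi-likelihood test, Benjamini-Hochberg adjusted p under 0.05), Plin4, Fitm1 and Fitm2 fell, so 3 of 10 members were called lower, against 3.33% of 11375 tested genes. No member (0) was called higher, against 1.49% of all tested genes, although Plin3 had an unadjusted p under 0.05, and DESeq2 and limma-voom also called 0 higher. The log2 fold change was negative for 9 of 10 members, with a median of -1.10 against 0.01 over all tested genes. The values of the groups did not overlap for 7 members. Of these 6 were lower, against 16.2% of all tested genes, and 1, Plin3, was higher, against 13.1%. Plin2, Plin5 and G0s2 overlapped. Cideb, which had few counts, was among the lower ones but overlapped when libraries were scaled to the counts of other genes. At an adjusted p under 0.1, 6 members were lower (6.89% of all tested genes) and 0 higher (3.91%), the additional ones being Plin2, Cidea and Cidec. DESeq2, which called 5.18% of its genes lower at 0.05, called Plin2 and Cidec beside the same 3.

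**Figure D1:**
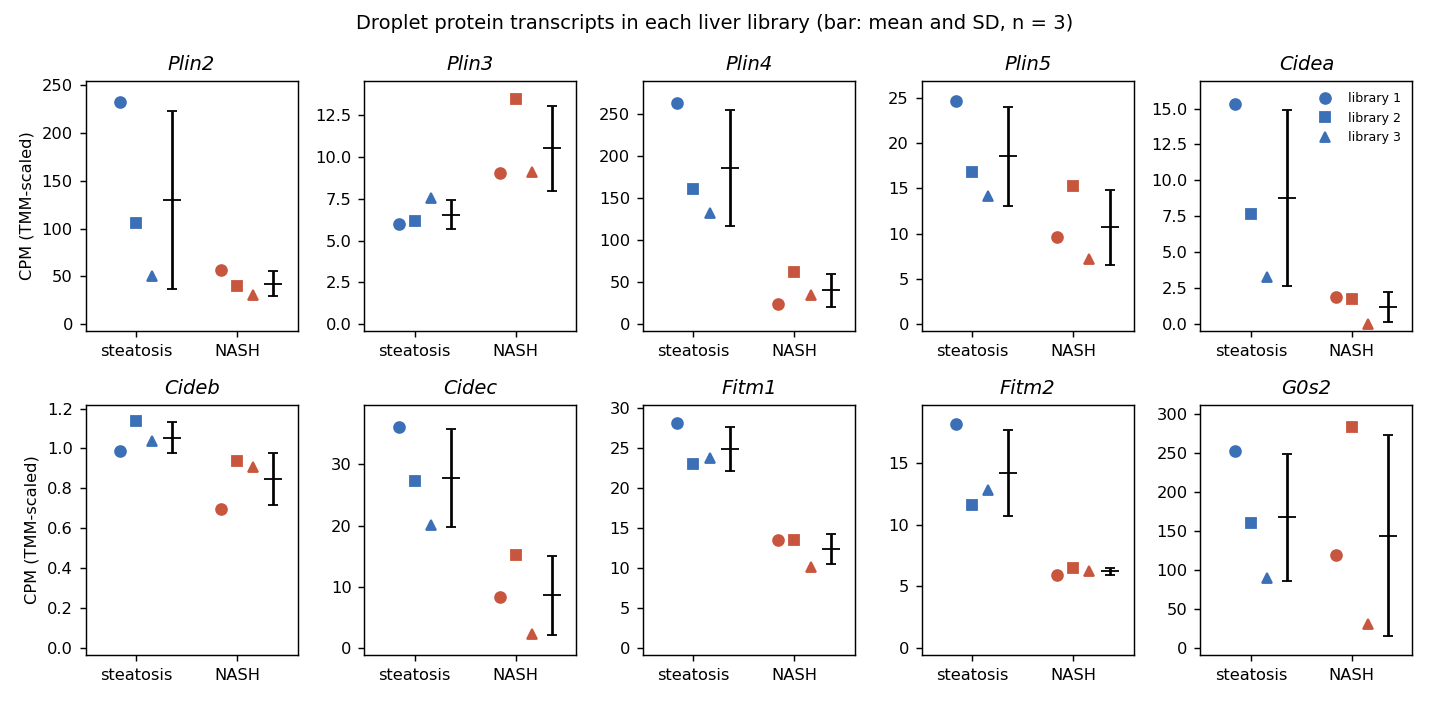
Level of each member in each library, in TMM-scaled CPM on linear axes that start just below 0. Blue points are steatosis and red points NASH, the marker shape gives the library number, and the black bar is the mean and SD of 3 libraries. The groups are apart for Plin4, Fitm1, Fitm2, Cidea, Cidec and Cideb, which are lower in NASH, and for Plin3, which is higher. G0s2 in NASH runs from 30.1 to 283 CPM.

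The start regions of the called members and of Plin5 are shown because Plin4 and Plin5 lie side by side and both have a TATA-like run close to the start, while the FIT genes have none. Each line gives the 150 bases before the RefSeq start, 5′ to 3′ on the gene's own strand, with the letters TATAA in capitals. The bases are from RefSeq promoter windows on GRCm38.p6.
Plin4, chr17:56109783-56109932, minus strand: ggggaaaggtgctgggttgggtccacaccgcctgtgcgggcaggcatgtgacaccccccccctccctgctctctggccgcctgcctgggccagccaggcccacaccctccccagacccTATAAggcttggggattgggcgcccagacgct
Plin5, chr17:56117549-56117698, minus strand: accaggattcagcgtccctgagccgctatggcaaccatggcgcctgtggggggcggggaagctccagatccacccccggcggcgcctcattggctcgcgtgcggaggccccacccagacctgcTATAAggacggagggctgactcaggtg
Fitm1, chr14:55575524-55575673, plus strand: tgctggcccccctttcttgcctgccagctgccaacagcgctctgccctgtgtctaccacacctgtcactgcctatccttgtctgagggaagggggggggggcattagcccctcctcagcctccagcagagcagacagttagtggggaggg
Fitm2, chr2:163472630-163472779, minus strand: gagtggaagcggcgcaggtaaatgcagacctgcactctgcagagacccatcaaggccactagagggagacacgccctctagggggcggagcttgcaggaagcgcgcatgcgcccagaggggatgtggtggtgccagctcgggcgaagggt

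The windows searched span 250 bases before to 50 after the start, and 11 of them covered 9 members. Cidea was left out of the search. TATAA was looked for on both strands and was present in 24.9% of all 32851 windows. In Plin4 it began 32 bases before the RefSeq start and in the first of the 2 Plin5 windows 27 bases before it. The gene spans given below are from GENCODE M21, and the RefSeq starts of Plin4, Plin5 and Fitm1 lie inside them. Part of the bases printed for these genes therefore falls within the spans, and so does the Plin5 match. The remaining match was in Cideb, 172 bases before the start. The palindromic E-box CACGTG, found in 7.15% of all windows, was present in Plin2, where it begins 4 bases before the start. A direct repeat of AGGNCA with 1 base between the copies, the kind of element that PPAR and RXR dimers bind, was searched on both strands with N as any base. It was present in 0.381% of all windows and in 0 of the 11. A match is only a run of letters, and these short windows leave out most of each gene's regulatory sequence.

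The FIT genes gave the tightest difference between the groups. Fitm1, known mainly from muscle but also measured here in liver, lies at chr14:55575617-55576954 on the plus strand of GRCm38. Its level was 28.1, 23.0 and 23.7 CPM in steatosis 1, 2 and 3 and 13.5, 13.5 and 10.2 CPM in NASH 1, 2 and 3. Each NASH library was below each steatosis library, and the spread within a group was small. The mean went from 25.0 ± 2.75 to 12.4 ± 1.93 CPM (SD, n = 3 each), a log2 fold change of -1.01 (SE 0.19, edgeR's adjusted p = 0.0211). Fitm2, the more widely expressed member of the pair, lies at chr2:163466379-163472629 on the minus strand. It stood at 18.2, 11.6 and 12.8 CPM in steatosis and at 5.91, 6.50 and 6.26 CPM in NASH. The NASH values lay within 1.10 times of each other and all were under the lowest steatosis value. Its mean went from 14.2 ± 3.51 to 6.22 ± 0.297 CPM (SD, n = 3 each), with a log2 fold change of -1.19 (SE 0.22, edgeR's adjusted p = 0.0180).

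Per kilobase of exon, Fitm1 made up between 86.3% and 90.3% of the summed FIT level in every library, a share that overlapped between the groups. That sum was 33.5, 26.6 and 27.7 CPM per kb in steatosis and 15.4, 15.6 and 12.1 CPM per kb in NASH. Fitm1 shares 11.2% of its exon positions with the antisense gene Gm15932, which held 0 to 4 counts per library, and Fitm2 shares 5.72% with the antisense gene 2310001K24Rik, which held 0 to 2. Most fits that left out 1 library lost the FIT calls. Over the fits that left out 1 library, the log2 fold change ran from -0.88 to -1.07 for Fitm1. For Fitm2 it ran from -0.96 to -1.31. The Fitm1 call was lost without steatosis 1 (edgeR's adjusted p = 0.0773), steatosis 2 (0.0687), NASH 1 (0.0571), NASH 2 (0.0550) or NASH 3 (0.0687), and the Fitm2 call without steatosis 1 (0.0602), NASH 1 (0.0590), NASH 2 (0.0539) or NASH 3 (0.0516).

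Among the perilipins, Plin4 had the largest fold change and was the only one to pass. Plin4 encodes a long perilipin with many copies of an amphipathic repeat, best known from adipocytes, where it coats nascent droplets. The gene lies at chr17:56100591-56109803 on the minus strand. Its level was 264, 161 and 133 CPM in steatosis 1, 2 and 3 and 24.4, 61.7 and 34.8 CPM in NASH 1, 2 and 3. The lowest steatosis liver was above the highest NASH liver, which was NASH 2. The mean went from 186 ± 68.9 to 40.3 ± 19.3 CPM (SD, n = 3 each), 4.60-fold lower in the fit (log2 fold change -2.20, SE 0.38, edgeR's adjusted p = 0.0147). The call was lost without steatosis 1 (edgeR's adjusted p = 0.0541), NASH 1 (0.0508) or NASH 3 (0.0516), with log2 fold changes from -1.85 to -2.63 over the fits that left out 1 library. Plin4 shares 17 exon bases with Hdgfl2 on the opposite strand, 0.294% of its exon length.

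Plin5, which tethers droplets to mitochondria in oxidative tissues, is the neighbour of Plin4 at chr17:56111601-56117596, on the same strand and 1797 bp from it. It held 24.6, 16.8 and 14.2 CPM in steatosis and 9.66, 15.2 and 7.17 CPM in NASH. NASH 2 reached into the steatosis range, so the groups overlapped. The log2 fold change was -0.79 (SE 0.30, edgeR's adjusted p = 0.143), which did not pass. Whether Plin4 and Plin5 differed from each other in fold change was not tested.

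Plin2, the perilipin that coats most droplets of hepatocytes and is widely used as a measure of fat load, lies at chr4:86648386-86670060 on the minus strand. It held 232, 106 and 50.6 CPM in steatosis 1, 2 and 3 and 57.0, 39.5 and 31.1 CPM in NASH 1, 2 and 3. Steatosis 1 was 4.59 times steatosis 3, and NASH 1 was above steatosis 3. The mean went from 129 ± 93.1 to 42.5 ± 13.2 CPM (SD, n = 3 each). A log2 fold change of -1.61 (SE 0.47, edgeR's adjusted p = 0.0798) did not pass. Steatosis 1 carried much of it, since without that library the log2 fold change was -0.87 (edgeR's adjusted p = 0.275). Without steatosis 3 it was -1.97 and passed (edgeR's adjusted p = 0.0248).

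Plin3, a soluble perilipin that moves onto newly made droplets and also has a role in endosomal trafficking, was the member with a positive fold change. Its gene lies at chr17:56277476-56292873 on the minus strand. It held 5.98, 6.17 and 7.53 CPM in steatosis and 9.03, 13.5 and 9.08 CPM in NASH, with each NASH library above each steatosis library. The mean went from 6.56 ± 0.847 to 10.5 ± 2.54 CPM (SD, n = 3 each). On the log2 scale the change of 0.68 (SE 0.22, edgeR's adjusted p = 0.101) did not pass, and it stayed between 0.48 and 0.82 with each library left out in turn, in fits that did not call it either.

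The make-up of the perilipin pool differed between the groups. The summed perilipin level was 125, 67.6 and 46.2 CPM per kb of exon in steatosis and 27.5, 32.8 and 20.7 CPM per kb in NASH. Plin4 made up 36.5%, 41.2% and 49.8% of that sum in steatosis and 15.4%, 32.6% and 29.1% in NASH, with no overlap. The share of Plin3 was 1.26%, 2.41% and 4.31% in steatosis and 8.69%, 10.8% and 11.6% in NASH. Plin5 had 9.44% to 14.7% of the sum in steatosis and 16.6% to 22.2% in NASH. The share of Plin2 overlapped, at 31.2% to 52.8% in steatosis and 34.3% to 59.1% in NASH. These shares are a description of 3 libraries per group, depend on each other because they add up to the whole, and use the merged exons of GENCODE M21 as length.

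**Figure D2:**
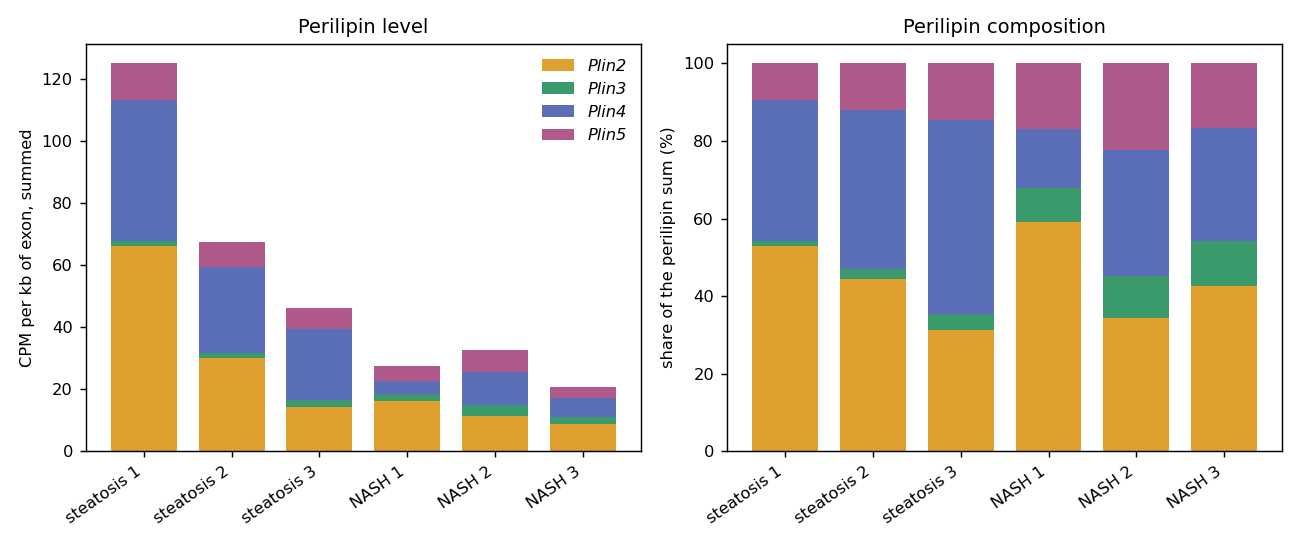
Stacked perilipin levels in CPM per kb of merged exon (left) and the same as shares of their sum in percent (right), 1 bar per library. The left bars run from 125 in steatosis 1 to 20.7 in NASH 3. On the right the green band (Plin3) is at least 8.69% in the NASH libraries and at most 4.31% in the steatosis libraries.

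Cidea and Cidec, the CIDE genes that rise with fat storage in liver, had lower levels in every NASH library than in any steatosis library, with wide spread, and neither passed the test. Cidea, known best from brown adipocytes, lies on chromosome 18, from 67343604 to 67367785, on the plus strand. It held 15.3, 7.67 and 3.30 CPM in steatosis and 1.88, 1.74 and 0 CPM in NASH. The raw counts were 249, 128 and 89 against 27, 26 and 0, and a count of 0 in NASH 3 allows up to 3 counts, or 0.272 CPM. All 3 NASH values were below the lowest steatosis value, and the steatosis values spanned 4.65-fold. In the fit the log2 fold change was -2.77 (SE 0.71, edgeR's adjusted p = 0.0534), which did not pass. It was -2.08 without steatosis 1 (edgeR's adjusted p = 0.191) and -3.15 without steatosis 3, where it passed (edgeR's adjusted p = 0.0297).

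Cidec, also called Fsp27, which drives the growth of large droplets, lies at chr6:113424634-113435760 on the minus strand. It held 36.2, 27.2 and 20.1 CPM in steatosis and 8.27, 15.1 and 2.36 CPM in NASH. The groups did not overlap, but the NASH libraries spanned 6.41-fold, with NASH 3 lowest and NASH 2 highest. The mean went from 27.8 ± 8.03 to 8.59 ± 6.39 CPM (SD, n = 3 each). Its log2 fold change of -1.68 (SE 0.49, edgeR's adjusted p = 0.0758) did not pass, and it was -2.35 without NASH 2, where it did (edgeR's adjusted p = 0.0400). NASH 3 is also the library with the highest share of rRNA-like counts, and without it the log2 fold change of Cidec was -1.24 (edgeR's adjusted p = 0.0846) and that of Cidea -2.25 (0.0778).

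Cideb, the CIDE gene that hepatocytes express constitutively and that takes part in loading of lipoproteins, had few counts. It lies at chr14:55754050-55758458 on the minus strand, and its 6 libraries held 16, 19, 28, 10, 14 and 10 counts, in the order steatosis 1 to 3 and NASH 1 to 3. In CPM these were 0.986, 1.14 and 1.04 in steatosis and 0.695, 0.938 and 0.908 in NASH. The groups did not overlap on this scale but did when libraries were scaled to the counts of other genes. For Cideb the log2 change was -0.32 (SE 0.34, edgeR's adjusted p = 0.622), which did not pass. Of the exon positions of Cideb, 76.3% lie within exons of Nop9 on the opposite strand, which held 48 to 185 counts per library. How the authors' counting treated reads in shared positions is not given in the sources used here, so the level of Cideb is uncertain and should not be ranked against its relatives.

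G0s2, the inhibitor of adipose triglyceride lipase, had the highest level per length of all members. It lies at chr1:193272161-193273217 on the minus strand, inside the span of Lamb3 on the other strand but with no shared exon base (0). Its level was 252, 160 and 89.7 CPM in steatosis and 119, 283 and 30.1 CPM in NASH. NASH 2 was the highest and NASH 3 the lowest of all 6 livers, a 9.43-fold span within 1 group. The log2 fold change was -0.22 with an SE of 0.63 (edgeR's adjusted p = 0.877), and its sign turned with the library left out, from -1.16 without NASH 2 to 0.21 without steatosis 1 and 0.27 without NASH 3. A group difference was not detectable at this spread.

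**Figure D3:**
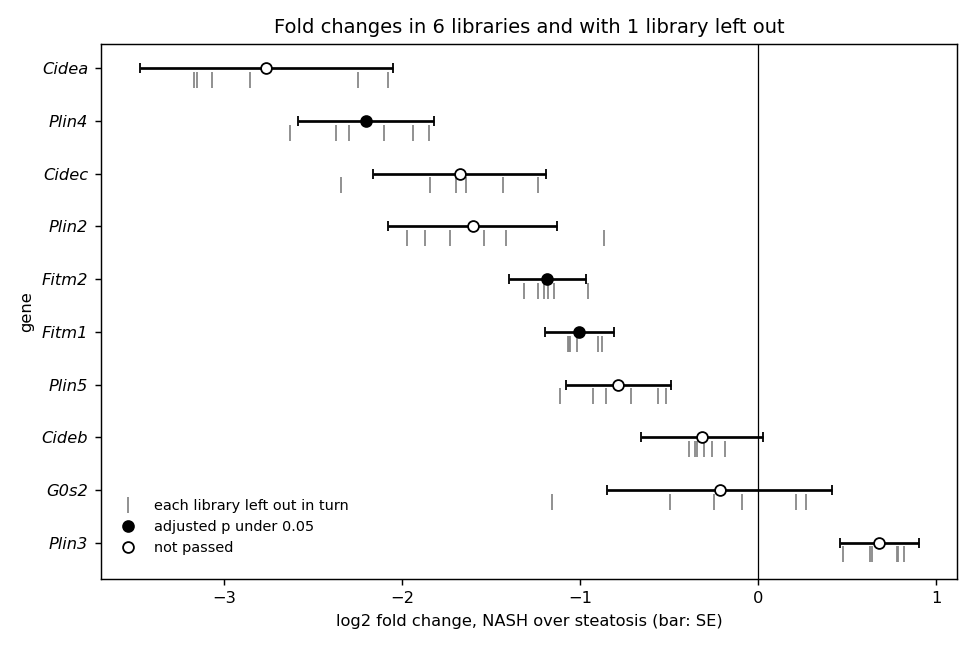
Log2 fold change of NASH over steatosis for each member (point) with its SE (bar), and the values when each library in turn is left out (grey ticks). Filled points passed an adjusted p of 0.05 and open points did not. The ticks of Plin2, Cidea, Cidec and G0s2 spread most, and those of G0s2 lie on both sides of 0.

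The order of the members by level per kb of exon was led by G0s2 in both groups, at 192 ± 93.6 in steatosis and 165 ± 148 CPM per kb in NASH (SD, n = 3 each), above every other member in every library. In steatosis Plin2 (36.9 ± 26.5), Plin4 (32.1 ± 11.9) and Fitm1 (25.7 ± 2.83 CPM per kb) followed, and the ranges of neighbours in this order overlapped. Cidec (15.0 ± 4.32), Plin5 (8.88 ± 2.61) and Cidea (7.87 ± 5.47 CPM per kb) came next, with Cidec below Fitm1 in all 3 libraries and overlapping Plin5 in range. Fitm2 (3.58 ± 0.884 CPM per kb) overlapped Cidea in range. Plin3 (1.73 ± 0.224 CPM per kb) closed the order, without overlap with Fitm2. Cideb had 0.709 ± 0.0522 CPM per kb in steatosis and 0.569 ± 0.0890 in NASH and is left unranked because of its overlap with Nop9. In NASH Fitm1 (12.8 ± 1.98) and Plin2 (12.1 ± 3.76 CPM per kb) overlapped behind G0s2. Plin4 (6.98 ± 3.34), Plin5 (5.12 ± 1.97) and Cidec (4.63 ± 3.44 CPM per kb) overlapped as neighbours. Plin3 (2.78 ± 0.672 CPM per kb) stood above Fitm2 (1.57 ± 0.0749 CPM per kb) in all 3 NASH libraries, the reverse of their order in all 3 steatosis libraries. Cidea (1.08 ± 0.938 CPM per kb) had the lowest mean, and its range overlapped that of Fitm2.

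**Figure D4:**
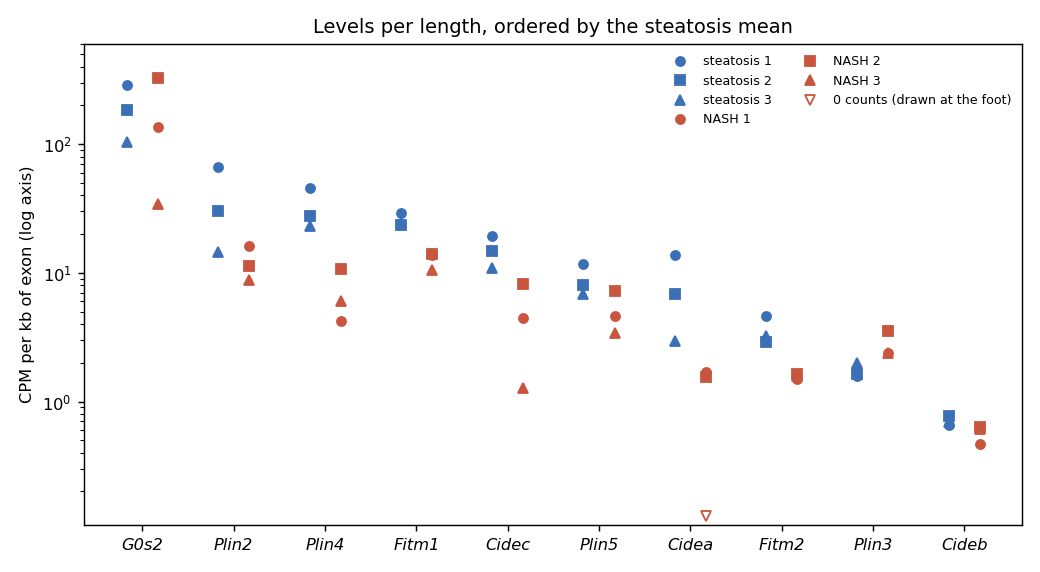
Level per kb of merged exon in each library on a log axis, with members ordered by their steatosis mean. Blue is steatosis and red NASH, the marker shape gives the library number, and the open triangle at the foot marks the 0 counts of Cidea in NASH 3. G0s2 is highest in each library, and Plin3 is the member whose NASH points all lie above its steatosis points.

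The same libraries were often highest or lowest across the members. Steatosis 1 held the highest steatosis value of 8 of 10 members and steatosis 3 the lowest of 6. Among NASH livers NASH 2 was highest for 8 members and NASH 3 lowest for 6. How often these libraries were highest or lowest over all tested genes was not counted, so the pattern is not taken as particular to the members. Across the 6 libraries log2 CPM of Cidea and Cidec had a Pearson r of 0.97, Fitm1 and Fitm2 of 0.95, Plin4 and Fitm2 of 0.95, and Plin5 and Cidec of 0.95. G0s2 went with Plin5 (0.83) and Cidec (0.82) more than with Fitm2 (0.37), and Plin3 had a negative r with the other members, from -0.80 with Fitm2 to -0.01 with G0s2. These r are descriptions over 6 libraries that share the group difference and the scaling. Of 7904 genes compared, those most like Plin4 were Gstt2, Mgll and Ahctf1 (r of 0.998, 0.996 and 0.995). Fitm1 was most like Ndufc2, Surf1 and Hprt (0.996, 0.993 and 0.991) and Fitm2 most like Atp5c1, Acad11 and Cyp4a10 (0.999, 0.998 and 0.998). With 6 points high values are common, and 137, 170 and 196 genes passed an r of 0.95 with Plin4, Fitm1 and Fitm2.

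The genes read for the removal of fat from droplets were more often lower than higher in NASH. Of 13 tested genes of triglyceride breakdown, 2 fell and 1 rose, with a median log2 fold change of -0.55. The log2 fold change was negative for 9 and positive for 4, and at an unadjusted p under 0.05 in edgeR 6 were lower and 2 higher. DESeq2 called 4 of 12 lower and 0 higher, and limma-voom called 2 lower and 1 higher. Mgll, the monoacylglycerol lipase that completes the breakdown, fell, with a mean of 72.7 ± 14.0 CPM in steatosis and 34.7 ± 6.95 CPM in NASH (SD, n = 3, edgeR's adjusted p = 0.0356). Ces1d, a carboxylesterase with triglyceride hydrolase activity and close relatives in the genome, fell by 2.81 on the log2 scale (SE 0.47, edgeR's adjusted p = 0.0132). Pnpla3, a lipase-family protein of droplets, rose from 0.0616, 0 and 0.148 CPM to 1.88, 0.871 and 0.908 CPM (edgeR's adjusted p = 0.0164), on few counts, and DESeq2 gave it no adjusted p. Pnpla2, the lipase that G0S2 inhibits, held 85.8, 31.0 and 19.7 CPM in steatosis and 18.3, 23.4 and 18.9 CPM in NASH. Its groups overlapped, with a log2 fold change of -1.17 (edgeR's adjusted p = 0.151) that was -0.31 without steatosis 1. Abhd5, the activator of that lipase, stood at 0.31 (edgeR's adjusted p = 0.430), Lipe, hormone-sensitive lipase, at 0.16 (0.659), and Hilpda, a further inhibitor, at -0.88 (0.397). Without 1 library the Mgll call was lost in 5 of 6 fits, all but that without steatosis 3 (edgeR's adjusted p = 0.0575 to 0.125), the Ces1d call without steatosis 1 (0.0529), and the Pnpla3 call without steatosis 1, steatosis 2 or NASH 1 (0.0753, 0.0612 and 0.0593). Scaled to other genes, Mgll did not pass either (edgeR's adjusted p = 0.0538), nor did it with the replicate number as a block (0.0507).

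Of 20 tested genes for making and growing droplets, 2 rose and 0 fell, with a median log2 fold change of -0.22. At an unadjusted p under 0.05, 4 were lower, and DESeq2 and limma-voom called 0 lower. Lpin3, a phosphatidate phosphatase, rose, with a mean of 2.79 ± 0.125 CPM in steatosis and 6.40 ± 0.0922 CPM in NASH (SD, n = 3, edgeR's adjusted p = 0.0121), a call lost without steatosis 2 (0.0552). Acsl3, which activates fatty acids at nascent droplets, rose by 1.35 on the log2 scale (edgeR's adjusted p = 0.0259), a call lost without steatosis 2 (0.1), steatosis 3 (0.0556), NASH 1 (0.0736) or NASH 2 (0.0778). Dgat1 and Dgat2, the enzymes of the last step of triglyceride synthesis, had log2 fold changes of -0.23 and -0.55 (edgeR's adjusted p = 0.552 and 0.266), and Bscl2, which encodes seipin at the neck of budding droplets, one of -0.21 (0.607). These did not pass.

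Among 24 tested genes of other proteins found at droplets, 2 fell and 3 rose, with a median of -0.14. Hsd17b11, a droplet dehydrogenase, fell, with a mean of 45.9 ± 19.1 CPM in steatosis and 10.3 ± 0.922 CPM in NASH (SD, n = 3, log2 fold change -2.16, edgeR's adjusted p = 0.00554). Its relative Hsd17b13, a droplet protein of hepatocytes, had a log2 fold change of -0.65 (edgeR's adjusted p = 0.219). Aifm2, a ubiquinone reductase that guards against ferroptosis, fell by 1.10 on the log2 scale (edgeR's adjusted p = 0.0481), a call lost without any 1 library (0.0557 to 0.167). It was also lost with limma-voom (adjusted p = 0.0502) and, in edgeR, with DESeq2's size factors (0.0523), upper-quartile factors (0.0563) or scaling to other genes (0.0691). The same held in edgeR with mitochondrial and rRNA-like loci removed (adjusted p = 0.0509) or with the replicate number as a block (0.0730). The 3 that rose were Nsdhl and Lss, enzymes of sterol synthesis that also reside at droplets (log2 fold changes of 2.65 and 1.74, edgeR's adjusted p = 0.00275 and 0.00554), and Tmem41b, of the reticulum membrane (1.14, edgeR's adjusted p = 0.0448). The Tmem41b call was lost in every fit that left out 1 library except that without NASH 3 (edgeR's adjusted p = 0.0745 to 0.134). It was also lost with limma-voom (adjusted p = 0.0561) and with the replicate number as a block (edgeR's adjusted p = 0.0540).

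For the 17 tested transcription factors and cofactors that act on droplet genes, edgeR called 0 in either direction. In edgeR 2 were lower and 0 higher at an unadjusted p under 0.05, and DESeq2 called 1 lower and limma-voom 0. Ppara held 12.5, 12.4 and 7.38 CPM in steatosis and 3.20, 6.43 and 4.99 CPM in NASH, without overlap. Its log2 fold change of -1.14 (SE 0.29, edgeR's adjusted p = 0.0543) did not pass, although it did without steatosis 3 (0.0348). Pparg stood at -0.90 (edgeR's adjusted p = 0.0927) and the coactivator Ppargc1a at -0.54 (0.284). Of 20 genes known as PPARalpha targets, 11 fell and 0 rose, with a median of -1.20, and DESeq2 and limma-voom also called 0 higher. They included the fatty acid hydroxylases Cyp4a10 (log2 fold change -3.48) and Cyp4a14 (-4.27), the thioesterase Acot1 (-3.43), the dehydrogenase Acadm (-1.42), the pantetheinase Vnn1 (-1.38) and the transporter Cd36 (-1.63). The number that fell was 4 without NASH 1, 5 without NASH 3, 6 without NASH 2, steatosis 1 or steatosis 2, and 11 without steatosis 3, and it was 2 without both libraries rich in rRNA-like reads. The call for Cyp4a14 did not hold without NASH 1 or without NASH 3 (edgeR's adjusted p = 0.0584 and 0.0523), and the Acadm call without steatosis 1, steatosis 2, NASH 1 or NASH 3 (0.0541, 0.0612, 0.0574 and 0.0516). Their summed level was 8205, 3785 and 3554 CPM in steatosis and 2276, 2411 and 2328 CPM in NASH. Steatosis 1 was the highest here, as it was for the summed hepatocyte markers (17961 CPM). The summed genes of triglyceride breakdown were highest in steatosis 2 (1386 CPM). Whether the PPARalpha targets and the droplet members are linked was not tested. Of 9 tested genes of lipoprotein export 0 passed, with 1 higher and 1 lower at an unadjusted p under 0.05 and a median of 0.16, while DESeq2 called 1 lower and limma-voom 0.

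Several members are best known from other tissues, so markers of those tissues were read in the same libraries. Of 10 adipocyte markers, Adipoq, Lep and Plin1 had 0 counts in all 6 libraries, and Retn and Slc7a10 at most 3 in any. The summed adipocyte list ran from 1140 to 2071 CPM in steatosis and from 573 to 995 CPM in NASH, and most of it was Car3 and Pck1, which hepatocytes also express. Of its 5 tested genes 3 had a negative and 2 a positive log2 fold change. Car3 fell (log2 fold change -1.70, edgeR's adjusted p = 0.00876), and 2 were lower at an unadjusted p under 0.05. The second, Cfd, which encodes adipsin, held 127, 55.4 and 33.7 CPM in steatosis and 41.1, 26.9 and 11.7 CPM in NASH (log2 fold change -1.43, edgeR's adjusted p = 0.128), and it was highest in steatosis 1, as was Plin2. The part of adipocyte RNA in the members' levels was not tested. Of 6 brown adipocyte markers Otop1 and Zic1 had 0 counts and Ucp1 and Cox8b at most 3 per library. Skeletal muscle markers, read because Fitm1 is a muscle gene, summed to 0.599 to 1.17 CPM in steatosis and to 0.208, 8.64 and 1.45 CPM in NASH 1, 2 and 3, with 0 of 10 passing the filter. Fitm1 itself was 13.5, 13.5 and 10.2 CPM in NASH 1, 2 and 3, and the part of muscle RNA in its level was not tested.

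Non-parenchymal cells also carry droplets and were read the same way. Of 12 stellate cell markers Dcn fell (log2 fold change -1.03, edgeR's adjusted p = 0.0348), a call lost without any 1 library (0.0584 to 0.115) and when scaled to other genes (0.0524), and the summed level was 125 to 133 CPM in steatosis and 93.2 to 114 CPM in NASH. Of 10 Kupffer cell and 6 recruited macrophage markers 0 passed, with 2 higher Kupffer and 1 lower macrophage genes at an unadjusted p under 0.05 and 0 called by DESeq2 or limma-voom. Their sums were 42.8 to 47.2 and 36.6 to 53.3 CPM in steatosis and 34.2 to 79.4 and 28.6 to 35.2 CPM in NASH. Of 10 endothelial markers edgeR called 0, with 4 higher and 0 lower at an unadjusted p under 0.05, DESeq2 called 1 higher and limma-voom 0, and the sum was 74.4 to 97.2 CPM in steatosis and 105 to 147 CPM in NASH. Cholangiocyte markers summed to 34.8 to 55.2 and 22.2 to 37.4 CPM, and lymphocyte and neutrophil markers to 1.91 to 3.12 and 1.54 to 2.71 CPM. The part of these cells in the levels of the droplet genes was not tested.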

How the data were processed

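RNA of 6 mouse livers was extracted, and libraries of polyadenylated RNA were sequenced as pairs of 150 bp reads, per the labels' protocols. The deposited files hold raw counts per gene, which the authors did not normalize. TopHat2 and HTSeq and the mm10 (GRCm38) genome are named in the submitters' processing notes. Versions, annotation release, strand setting and handling of shared reads: not given in the sources used here. Without strand, reads in exon positions shared by genes on opposite strands cannot be assigned to either gene.

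Symbols were matched for 37607 of 39179 identifiers, and coordinates and exon lengths were taken from GENCODE M21. Replicates are samples that the labels number 1 to 3 in each group, taken as separate mice because the labels imply it. If they were not, p-values measure technical spread. In R 4.3.3, genes were filtered with edgeR 4.0.16's default, which left 11375, scaled with TMM factors (0.79 to 1.50), and tested with edgeR's quasi-likelihood F test, with p-values adjusted over all of them (Benjamini-Hochberg). The SE was derived from the F statistic. Log2 CPM for correlations used a prior count of 2. The test was tried on simulated data. Libraries of a group differed by at least 34.0 in chi-square per degree of freedom, far above sampling noise.

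The 17 gene lists, which include the members and are from general knowledge, were chosen with earlier results of these data known. Named genes are all members, up to 6 called genes per list with the smallest p, a fixed panel, and for each called member the 3 genes with the highest r where mean log2 CPM was 1 or more, without predicted models. Lamb3 and B430212C06Rik, which overlap members, and Cfd were described after their values were seen. A listed hepatocyte symbol, Tf, matched no identifier. Alternatives were DESeq2 1.42.0, limma-voom (limma 3.58.1), other scalings and filters, the replicate number as a block, and libraries left out.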

Additional observations from a re-analysis of the deposited data

How the results depend on the processing

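The count of 3 members called lower was the same with limma-voom, with DESeq2's size factors, upper-quartile factors or scaling to other genes in edgeR, with mitochondrial and rRNA-like loci removed, and with the stricter filter (a CPM of 1 or more in 3 or more libraries, where Cideb was not tested). It was 5 with DESeq2, 7 without a filter, 6 with the replicate block and 0 without the 2 libraries rich in rRNA-like reads (steatosis 2 and NASH 3), a setting that also ended the call of each named list gene except those of Nsdhl, Lss, Cyp4a10 and Acot1. With 1 library left out it ranged from 0 to 5. It was 0 without steatosis 1, NASH 1 or NASH 3, 2 without steatosis 2 or NASH 2, and 5 without steatosis 3. These fits have fewer samples by construction, and for the other settings the cause was not tested. No alternative run called a member higher (0 in each). Over all genes, 379 were lower in the comparison of 6 libraries, 554 with DESeq2, 912 of 19803 without a filter, 222 scaled to other genes, 19 without the 2 rRNA-rich libraries, and 77 to 298 with 1 library left out, against 169, 297, 535, 178, 17 and 29 to 170 higher. Scaling to other genes shifted the median change over all genes from 0.01 to 0.12 (log2), and no member changed sign by it. The log2 fold change of G0s2 turned positive without steatosis 1 or NASH 3 (range -1.16 to 0.27 with 1 library left out) and without both rRNA-rich libraries (0.23).

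With the replicate block, Plin2, Cidea and Cidec passed beside Plin4, Fitm1 and Fitm2, and 313 genes were lower and 153 higher. Same-numbered libraries did not deviate together (correlations of 0.03, -0.01 and 0.07 across genes), and not every library correlated best with its own number, so the number is not taken as a pairing. Depth limits Cideb (97 counts in all) and Cidea in NASH 3.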

Other observations

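The genes that overlap the members' spans gave values that fit in no comparison above and were singled out after they were seen. Lamb3, which encodes a laminin chain and has G0s2 within its span on the opposite strand, held 217, 127 and 55 counts in steatosis 1, 2 and 3 and 19, 22 and 4 in NASH 1, 2 and 3. In CPM these were 13.4, 7.61 and 2.04 against 1.32, 1.47 and 0.363, without overlap. It fell by 2.78 on the log2 scale (SE 0.65, edgeR's adjusted p = 0.0401), a call lost without any 1 library except steatosis 3 (edgeR's adjusted p = 0.0912 to 0.137) and with limma-voom (adjusted p = 0.142). G0s2 itself was highest in NASH 2, at 283 CPM, where Lamb3 was at 1.47 CPM, and both genes were lowest in NASH 3 (30.1 CPM for G0s2). Within each group the 3 libraries came in the same order for both genes.

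B430212C06Rik, a noncoding gene that overlaps the start of Cidea on the opposite strand without shared exon positions, had counts of 25, 25 and 14 in steatosis and of 6, 5 and 0 in NASH. Cidea held 249, 128 and 89 counts and 27, 26 and 0 in the same libraries, and both genes had 0 counts in NASH 3. B430212C06Rik did not pass (log2 fold change -2.07, SE 0.69, edgeR's adjusted p = 0.109).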
